A study of Mus musculus with 8 samples.

Results

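The 10 genes described here encode the inhibitors of the G1 cyclin-dependent kinases and the D cyclins that those kinases need. They were taken by symbol from a table of 56748 genes: Cdkn1a, Cdkn1b and Cdkn1c of the CIP/KIP family, Cdkn2a, Cdkn2b, Cdkn2c and Cdkn2d of the INK4 family, and Ccnd1, Ccnd2 and Ccnd3. RNA was sequenced from primary cardiac fibroblasts of 1-day-old C57BL/6J mice. In 4 cultures the cells received recombinant TGF-β1, a cytokine that turns fibroblasts towards a contractile, matrix-producing state, at 10 ng/mL for 48 h, and 4 cultures were untreated. The fibroblasts were the adherent fraction of digested hearts, kept after a short plating step, so other cardiac cells may remain in the cultures. The replicates of each group came from different litters, and all values describe RNA only.

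A cell in G1 divides when D cyclins bind CDK4 or CDK6 and the active kinases phosphorylate the RB proteins, which then release E2F factors to switch on the genes of DNA replication and mitosis. INK4 proteins bind CDK4 and CDK6 and keep D cyclins away from them. CIP/KIP proteins bind assembled cyclin-CDK complexes, chiefly those of CDK2. In epithelial cells TGF-β is known to stop the cycle by raising Cdkn2b and Cdkn1a through SMAD factors and by lowering Myc. In mesenchymal cells the response to TGF-β ranges from growth to arrest.

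With TGF-β1, 3 of the 10 genes were higher (Cdkn2b, Cdkn2a and Cdkn1a), 5 were lower (Cdkn2c, Ccnd1, Ccnd3, Cdkn2d and Cdkn1c), and 2 (Cdkn1b and Ccnd2) did not pass the test. Calls rest on the edgeR quasi-likelihood test and a threshold of 0.05 after Benjamini-Hochberg adjustment over the 13960 genes that passed the count filter, as all 10 members did. By the same rule 36.0% of all tested genes were called, 17.6% higher and 18.5% lower. The 8 called members were also the 8 whose libraries did not overlap between the groups, in a table where 33.9% of tested genes did not overlap. Without untreated replicate 1, a library that stood apart in one respect given below, the counts were again 3 higher and 5 lower, beside 32.8% called among all genes.

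**Figure D1:**
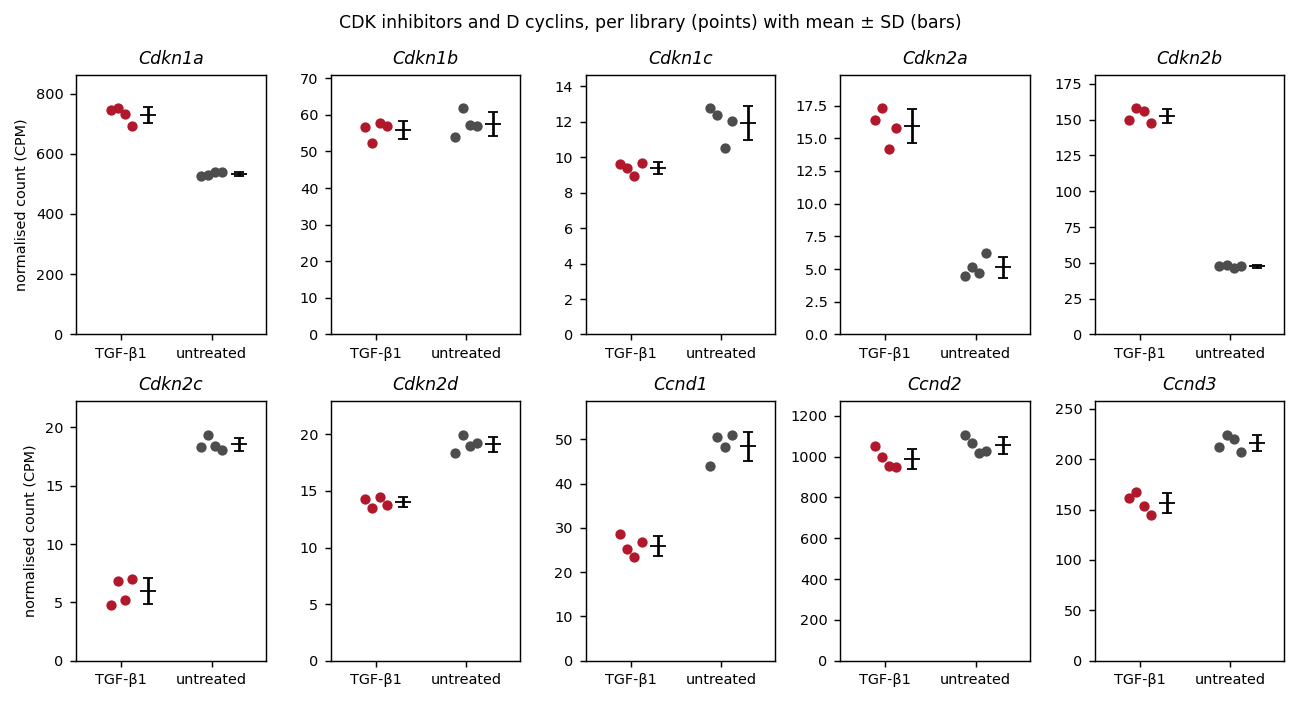
Level of each of the 10 genes in every library, in CPM (counts scaled by the TMM-adjusted library total) on axes that start at 0, with TGF-β1 cultures left of untreated cultures, points for the 4 libraries of a group and lines for the mean and SD. The groups separate for 8 genes, while the points of Cdkn1b and of Ccnd2 overlap.

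Cdkn2a and Cdkn2b lie next to each other on the minus strand of chromosome 4. In GRCm39, Cdkn2a (ENSMUSG00000044303) spans chr4:89192708-89212890 and Cdkn2b (ENSMUSG00000073802) spans chr4:89224536-89229276, with 11645 bases between them. Cdkn2b encodes p15INK4b. Cdkn2a has 2 annotated starts, and its transcripts encode p16INK4a, an inhibitor of CDK4 and CDK6, and p19ARF, which is read in another frame and binds MDM2, the ubiquitin ligase of p53. The deposited count sums both Cdkn2a transcripts, so the values below do not separate p16INK4a from p19ARF. The promoter windows of the 3 starts follow, because the adjacent genes are the members that rose most. Each runs from 250 bases before to 50 bases after the start, 5′ to 3′ on the minus strand, from RefSeq on GRCm38.p6, with the SMAD motif GTCTG or CAGAC and the SP1-type motif GGGCGG or CCGCCC in capitals.
Cdkn2b, chr4:89310983-89311282: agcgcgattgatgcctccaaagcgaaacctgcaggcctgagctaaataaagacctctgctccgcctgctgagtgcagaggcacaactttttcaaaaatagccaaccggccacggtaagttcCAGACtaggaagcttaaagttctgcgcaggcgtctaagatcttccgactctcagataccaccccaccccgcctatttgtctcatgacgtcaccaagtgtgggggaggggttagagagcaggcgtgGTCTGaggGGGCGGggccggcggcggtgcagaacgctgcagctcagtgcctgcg
Cdkn2a start of p19ARF, chr4:89294570-89294869: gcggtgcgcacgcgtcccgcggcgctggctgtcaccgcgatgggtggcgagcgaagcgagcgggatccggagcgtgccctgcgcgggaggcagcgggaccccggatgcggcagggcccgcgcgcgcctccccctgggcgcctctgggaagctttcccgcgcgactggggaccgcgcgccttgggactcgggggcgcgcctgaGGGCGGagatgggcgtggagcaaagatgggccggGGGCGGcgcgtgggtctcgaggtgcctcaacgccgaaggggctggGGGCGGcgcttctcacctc
Cdkn2a start of p16INK4a, chr4:89282143-89282442: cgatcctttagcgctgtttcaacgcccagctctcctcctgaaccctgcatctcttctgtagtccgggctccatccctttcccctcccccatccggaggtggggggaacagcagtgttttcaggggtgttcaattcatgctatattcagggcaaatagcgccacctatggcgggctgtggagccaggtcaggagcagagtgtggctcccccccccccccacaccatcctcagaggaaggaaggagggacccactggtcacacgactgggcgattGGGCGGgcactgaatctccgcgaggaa

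SMAD3 and SMAD4 bind DNA at GTCTG on either strand, and SP1 binds GC-rich boxes. The Cdkn2b window held 2 copies of the SMAD motif and 1 of the SP1-type motif. The p19ARF window held 0 copies of the SMAD motif and 3 of the SP1-type motif, and the p16INK4a window held 0 and 1. Among members that fell, the Cdkn2d window held 2 copies of the SMAD motif and 5 of the SP1-type motif. Ccnd3 held 2 copies of the SMAD motif in 1 window and 0 in the other, and Cdkn2c held 0 and 1. Cdkn1a, which rose, held 1 in each of its windows, and Cdkn1b, not called, held 0. Over all 32851 promoter windows of this length, 49.6% held the SMAD motif and 35.7% the SP1-type motif, so either match is common. The E2F-type motif TTTNNCGC, searched on both strands, stood once in each Cdkn2a window and not in that of Cdkn2b, against 5.17% of all windows. These matches describe letters, not bound sites. The GC content was 57.7% for Cdkn2b, 77.0% for the p19ARF start and 60.3% for the p16INK4a start, beside a median of 52.7% over all windows.

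Cdkn2b had 149.6, 158, 156 and 148 CPM in the TGF-β1 cultures, against 47.9, 48.2, 46.2 and 47.8 CPM in untreated cultures. Every treated library stood far above every untreated one. The mean was 153 ± 4.92 CPM with TGF-β1 and 47.5 ± 0.878 CPM without (SD, n = 4 each), a log2 fold change of 1.68 ± 0.04 (SE) or 3.21-fold (edgeR adjusted p = 8.62e-18). Here and below, fewer cells of a type and less RNA per cell cannot be told apart, since these are bulk samples.

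Cdkn2a had 16.4, 17.3, 14.2 and 15.8 CPM in the TGF-β1 cultures, against 4.45, 5.17, 4.72 and 6.26 CPM in untreated cultures. These rest on 202 to 265 reads per treated library and 67 to 105 reads per untreated library, so the counting error is larger than for Cdkn2b. The groups again stood apart. The mean was 15.9 ± 1.30 CPM with TGF-β1 and 5.15 ± 0.799 CPM without (SD, n = 4 each), a log2 fold change of 1.62 ± 0.12 or 3.08-fold (edgeR adjusted p = 2.1e-10).

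The adjacent genes thus rose by fold changes that lay within 1 SE of each other on the log2 scale, while their levels were far apart. Per length, Cdkn2b stood at 7.68, 7.70, 9.25 and 7.87 times the FPKM of Cdkn2a in the TGF-β1 cultures. In untreated cultures the ratio was 9.09, 7.85, 8.26 and 6.43. The log2 ratio averaged 3.02 ± 0.13 with TGF-β1 and 2.97 ± 0.21 without (SD, n = 4 each), a difference of 0.05 (exact permutation test over 70 assignments, two-sided, p = 0.8, and 0.8 adjusted over 10 single-value tests). The ranges overlap. A missed threshold does not show that the ratio stayed the same, and the sign of this small difference turned without TGF-β1 replicate 3 (-0.02) and without untreated replicate 4 (-0.05).

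The window of 500 kb on either side of this pair held 37 genes of the table, of which 19 had a read and 5, the pair included, passed the count filter. Mtap, which encodes the methylthioadenosine phosphorylase of methionine salvage, averaged 128 ± 5.85 CPM with TGF-β1 and 92.8 ± 4.69 CPM without (SD, n = 4 each). It rose by 0.46 ± 0.05 on the log2 scale (edgeR adjusted p = 3.32e-08). Gm12610, a long noncoding RNA on the plus strand whose span covers Cdkn2b, had 12, 19, 11 and 15 reads in the TGF-β1 cultures, against 11, 3, 7 and 7 reads in untreated cultures. Its groups touch at 11 reads. Its log2 fold change was 1.06 ± 0.39 (edgeR adjusted p = 0.0389), and the call was lost in 12 of 16 other settings. Gm49890 was not called (0.07 ± 0.44, edgeR adjusted p = 0.921). The other 14 genes with a read had at most 68 reads each and were not tested. Among them, the transcription factor gene Dmrta1 had 2, 3, 3 and 1 reads in the TGF-β1 cultures, against 1, 0, 4 and 3 reads in untreated cultures. The pseudogene Gm12608 had 4, 3, 6 and 10 reads in the TGF-β1 cultures, against 0, 0, 0 and 1 reads in untreated cultures.

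The other INK4 genes moved the opposite way. Cdkn2c (ENSMUSG00000028551, chr4:109518073-109524386, GRCm39, minus strand), encodes p18INK4c, an inhibitor of CDK4 and CDK6. It had 4.80, 6.84, 5.21 and 6.98 CPM in the TGF-β1 cultures, against 18.3, 19.4, 18.4 and 18.1 CPM in untreated cultures. No treated library came near an untreated one. The mean was 5.96 ± 1.12 CPM with TGF-β1 and 18.5 ± 0.568 CPM without (SD, n = 4 each), a log2 fold change of -1.63 ± 0.11 or 3.09-fold lower (edgeR adjusted p = 8.94e-11). Its change was close in size to those of Cdkn2a and Cdkn2b and opposite in sign.

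Cdkn2d (ENSMUSG00000096472, chr9:21199706-21202703, GRCm39, minus strand) encodes p19INK4d, which also binds CDK4 and CDK6. It had 14.2, 13.5, 14.5 and 13.8 CPM in the TGF-β1 cultures, against 18.3, 19.96, 18.9 and 19.2 CPM in untreated cultures. The groups did not overlap. The mean was 14.001 ± 0.457 CPM with TGF-β1 and 19.1 ± 0.678 CPM without (SD, n = 4 each), a log2 fold change of -0.45 ± 0.08 or 1.37-fold lower (edgeR adjusted p = 9.13e-05).

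Summed per length, INK4 RNA reached 131, 137, 133 and 129 FPKM in the TGF-β1 cultures, against 55.8, 58.0, 55.1 and 57.9 FPKM in untreated cultures. That is 2.34-fold higher with no overlap (exact permutation test over 70 assignments, two-sided, p = 0.0286, the smallest that 4 against 4 libraries allow, adjusted p = 0.0317 over 10 tests). Cdkn2b made up 81.6 ± 0.807% of the INK4 sum with TGF-β1 and 59.3 ± 0.989% without (SD, n = 4 each), with the same exact p and adjusted p. The rise of the sum therefore came mostly from Cdkn2b, the most abundant INK4 gene in both groups.

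In the CIP/KIP family, Cdkn1a rose, Cdkn1c fell and Cdkn1b did not pass the test. Cdkn1a (ENSMUSG00000023067, chr17:29309950-29319701, GRCm39, plus strand) encodes p21CIP1, an inhibitor of CDK2 complexes and a target of p53. It had 745, 750.5, 731 and 691 CPM in the TGF-β1 cultures, against 525, 530.0, 538 and 540.0 CPM in untreated cultures. All treated libraries were higher. The mean was 729 ± 27.1 CPM with TGF-β1 and 533 ± 7.05 CPM without (SD, n = 4 each), a log2 fold change of 0.45 ± 0.04 or 1.37-fold (edgeR adjusted p = 7.14e-10).

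Cdkn1b (ENSMUSG00000003031, chr6:134897364-134902476, GRCm39, plus strand) encodes p27KIP1, which in many cells is regulated through the stability of the protein. It had 56.7, 52.2, 57.8 and 56.9 CPM in the TGF-β1 cultures, against 54.1, 61.7, 57.1 and 57.0 CPM in untreated cultures. The groups overlap. The mean was 55.9 ± 2.51 CPM with TGF-β1 and 57.5 ± 3.18 CPM without (SD, n = 4 each), a log2 fold change of -0.04 ± 0.05 (edgeR adjusted p = 0.604).

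Cdkn1c (ENSMUSG00000037664, chr7:143012076-143014787, GRCm39, minus strand) encodes p57KIP2 and is an imprinted gene expressed from the maternal allele. It had 9.59, 9.40, 8.94 and 9.66 CPM in the TGF-β1 cultures, against 12.7, 12.4, 10.5 and 12.05 CPM in untreated cultures. The lowest untreated library, replicate 3, lay just above the highest treated one. The mean was 9.40 ± 0.327 CPM with TGF-β1 and 11.9 ± 0.986 CPM without (SD, n = 4 each), a log2 fold change of -0.34 ± 0.10 (edgeR adjusted p = 0.0105). Tested against a change of at least 1.2-fold, it was not called (edgeR adjusted p = 0.388), the only 1 of the 8 called members to lose its call there.

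The summed CIP/KIP level was 224, 224, 219 and 208 FPKM in the TGF-β1 cultures, against 163, 166, 166 and 168 FPKM in untreated cultures. It was 1.32-fold higher (exact permutation test, two-sided, p = 0.0286, adjusted p = 0.0317). Cdkn1a held 92.4 ± 0.440% of this sum with TGF-β1 and 89.0 ± 0.493% without, and Cdkn1c held 2.08 ± 0.116% with TGF-β1 and 3.47 ± 0.309% without (SD, n = 4 each). Both shares had the same exact p of 0.0286 and adjusted p of 0.0317.

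D cyclins are the regulatory subunits of CDK4 and CDK6 and link mitogen signals to the cycle. Ccnd1 (ENSMUSG00000070348, chr7:144483668-144493662, GRCm39, minus strand) had 28.7, 25.3, 23.4 and 26.7 CPM in the TGF-β1 cultures, against 44.0, 50.5, 48.2 and 51.1 CPM in untreated cultures. The groups were well apart. The mean was 26.0 ± 2.26 CPM with TGF-β1 and 48.5 ± 3.23 CPM without (SD, n = 4 each), a log2 fold change of -0.90 ± 0.07 or 1.86-fold lower (edgeR adjusted p = 4.38e-10). In the GENCODE M39 annotation 48.4% of the exonic bases of Ccnd1 lie under exons of LTO1 on the other strand. Whether reads were counted by strand is not given, so the Ccnd1 count is uncertain. LTO1 itself averaged 18.1 ± 1.79 CPM with TGF-β1 and 19.3 ± 0.836 CPM without (SD, n = 4 each) and was not called (-0.10 ± 0.08, edgeR adjusted p = 0.405). Such overlap covered 29.0% of Cdkn1c, 15.8% of Ccnd2 and 12.5% of Cdkn1a, less than 8% of each of the other genes, and 0% of Cdkn2a and Cdkn2b.

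Ccnd3 (ENSMUSG00000034165, chr17:47815976-47910616, GRCm39, plus strand) had 161, 167, 154 and 145 CPM in the TGF-β1 cultures, against 212, 224, 220.2 and 207 CPM in untreated cultures. Every treated library was lower. The mean was 157 ± 9.75 CPM with TGF-β1 and 216 ± 7.80 CPM without (SD, n = 4 each), a log2 fold change of -0.46 ± 0.04 or 1.38-fold lower (edgeR adjusted p = 2.11e-08).

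Ccnd2 (ENSMUSG00000000184, chr6:127102125-127129156, GRCm39, minus strand), the most abundant D cyclin here, had 1054, 996, 956 and 948 CPM in the TGF-β1 cultures, against 1107, 1068, 1019.7 and 1027 CPM in untreated cultures. TGF-β1 replicate 1 lay above the 2 lowest untreated libraries. The mean was 988 ± 48.2 CPM with TGF-β1 and 1055 ± 40.5 CPM without (SD, n = 4 each), a log2 fold change of -0.09 ± 0.04 that was not called (edgeR adjusted p = 0.0626). This gene sits at the threshold: 7 of 17 other settings called it lower. Among them were scaling by library totals (-0.18, edgeR adjusted p = 0.00138), leaving out TGF-β1 replicate 1 (-0.13, edgeR adjusted p = 0.0150) and leaving out untreated replicate 3 (-0.11, edgeR adjusted p = 0.0426).

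The D cyclins together had 134, 128, 122 and 121 FPKM in the TGF-β1 cultures, against 149, 147, 141 and 142 FPKM in untreated cultures. The treated sum was 0.873 times the untreated one (exact permutation test, two-sided, p = 0.0286, adjusted p = 0.0317), and the adjusted p was 0.0635 when any 1 untreated library was left out. The makeup of the sum shifted towards Ccnd2. Ccnd2 made up 81.8 ± 0.363% with TGF-β1 and 76.3 ± 1.07% without, Ccnd1 made up 4.30 ± 0.289% with TGF-β1 and 7.005 ± 0.586% without, and Ccnd3 made up 13.9 ± 0.573% with TGF-β1 and 16.7 ± 0.649% without (SD, n = 4 each). Each of the 3 shares had an exact permutation p of 0.0286 and an adjusted p of 0.0317.

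**Figure D2:**
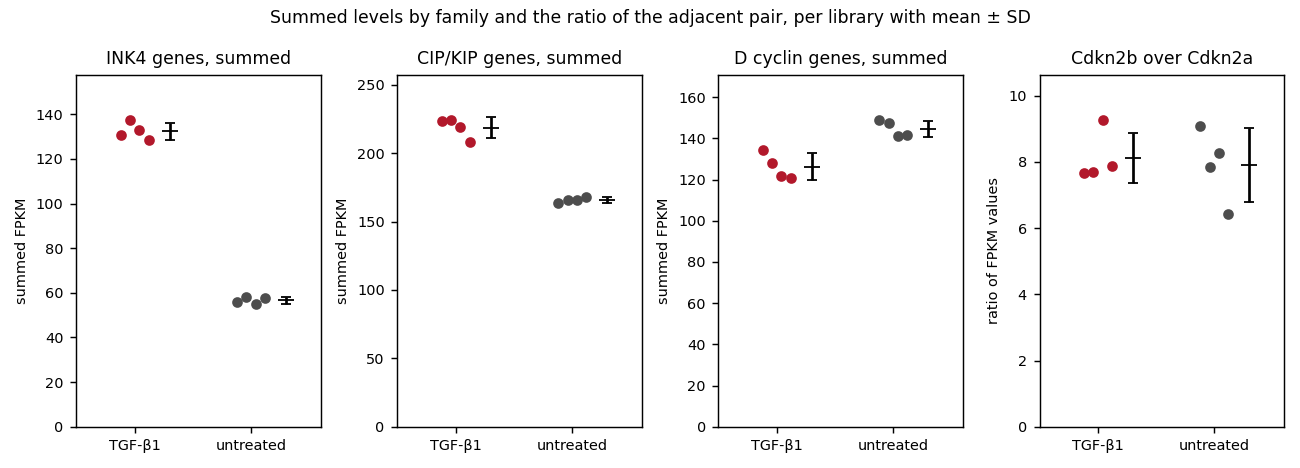
Summed FPKM of the INK4, CIP/KIP and D cyclin genes and, in the last panel, the ratio of Cdkn2b to Cdkn2a FPKM. Axes start at 0, with TGF-β1 cultures left of untreated cultures, a point for each library and bars for the mean and SD. The INK4 sum is 129 to 137 FPKM with TGF-β1 and 55.1 to 58.0 FPKM without, the CIP/KIP sum is also higher with TGF-β1, and the D cyclin sum is lower.

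The order of levels per length changed below its first rank. In the TGF-β1 cultures the mean FPKM ran from Cdkn1a (202) through Cdkn2b (108), Ccnd2 (103), Ccnd3 (17.6), Cdkn2a (13.4), Cdkn1b (12.1), Cdkn2d (8.75), Ccnd1 (5.44) and Cdkn1c (4.54) to Cdkn2c (2.18). Cdkn2b and Ccnd2 overlapped over libraries, as did Cdkn2a and Cdkn1b, and the other neighbours in that order were apart. In untreated cultures it ran from Cdkn1a (148) through Ccnd2 (110.3), Cdkn2b (33.6), Ccnd3 (24.2), Cdkn1b (12.4), Cdkn2d (11.9), Ccnd1 (10.1), Cdkn2c (6.79) and Cdkn1c (5.75) to Cdkn2a (4.32). There Cdkn1b overlapped Cdkn2d, and Cdkn1c overlapped Cdkn2a. Cdkn2a was thus the lowest of the 10 genes in untreated cultures, a place held by Cdkn2c in treated ones.

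**Figure D3:**
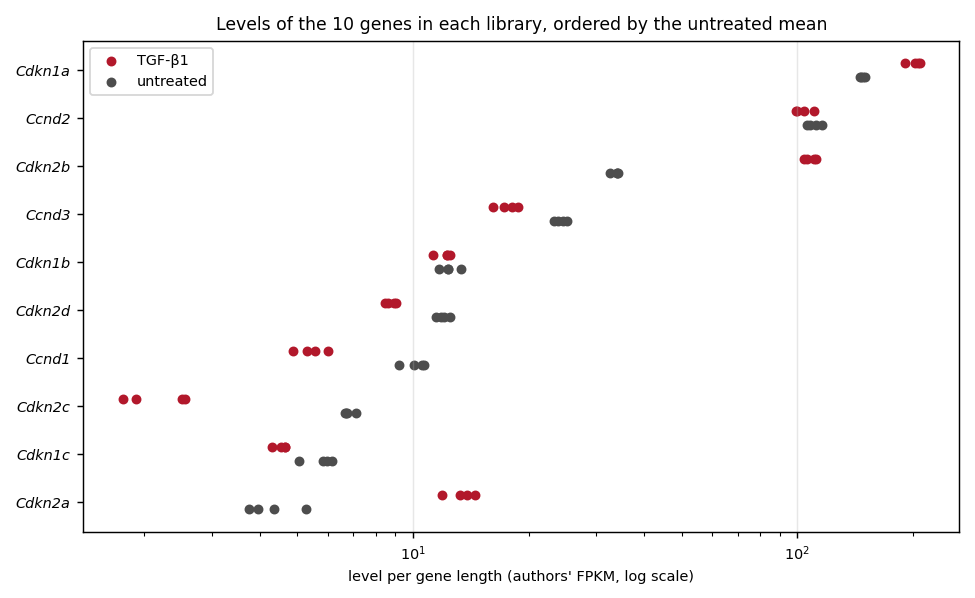
FPKM of the 10 genes on a log axis, with the TGF-β1 value of each gene beside its untreated value, and 1 point per library. Cdkn2b with TGF-β1 (108 FPKM) reaches the range of Ccnd2 (103 FPKM), and the lowest gene is Cdkn2c with TGF-β1 (2.18 FPKM) and Cdkn2a without (4.32 FPKM).

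The genes whose profiles over the 8 libraries lay nearest to those of the adjacent pair were found among 12383 tested genes with an established symbol, as the smallest root mean square difference of centred log2 CPM. For Cdkn2b they were Fstl3 (0.033), which encodes a follistatin-like binding protein of activins, Col11a1 (0.060), a fibrillar collagen gene, and Runx1 (0.061), a transcription factor gene. For Cdkn2a they were Col11a1 (0.121), Fez1 (0.123) and Runx1 (0.125). For Cdkn2c the nearest was Tacc3 (0.090), whose product acts at the mitotic spindle, and for Cdkn1a it was Actn1 (0.014), an actin crosslinker. These values are a description over libraries that share the treatment.

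The kinases that the D cyclins bind were lower by small amounts. Cdk4 averaged 208 ± 3.71 CPM with TGF-β1 and 232 ± 7.89 CPM without (SD, n = 4 each), a log2 fold change of -0.16 ± 0.04 (edgeR adjusted p = 0.00197). Cdk6 averaged 98.5 ± 2.44 CPM with TGF-β1 and 119 ± 2.66 CPM without (SD, n = 4 each), a log2 fold change of -0.27 ± 0.04 (edgeR adjusted p = 9.81e-06). The kinase and cyclins of the later phases fell much further, with log2 fold changes of -2.31 ± 0.07 for Cdk1, -2.84 ± 0.10 for Ccnb1, -2.95 ± 0.13 for Ccna2 and -3.10 ± 0.15 for Ccnb2. Of the 16 CDK partners and later cyclins, 12 were lower and 3 higher, with a median of -1.04 beside 0.01 over all tested genes.

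Downstream of these kinases, 10 of the 19 genes of the RB family and the E2F and DREAM factors were lower and 1, Rb1, was higher (0.37 ± 0.07), a gene named after its value was seen because it is the only one that rose. The log2 fold change was -1.999 ± 0.10 for Foxm1 and -3.03 ± 0.20 for Mybl2, factors that drive mitotic genes, -1.63 ± 0.13 for Rbl1, which encodes the RB relative p107, and -2.19 ± 0.17 for E2f7, an E2F repressor. The list median was -0.41 beside 0.01 over all genes, and with library totals the count was 15 lower and 1 higher. Of the 28 cell division genes, all 28 were lower, with a median of -2.57. Mki67, which encodes the proliferation antigen Ki-67, averaged 7.86 ± 2.08 CPM with TGF-β1 and 64.6 ± 2.16 CPM without (SD, n = 4 each), a log2 fold change of -3.04 ± 0.10 (edgeR adjusted p = 9.56e-16). Top2a (-2.88 ± 0.08), a topoisomerase gene, Tpx2 (-2.45 ± 0.08), a spindle gene, and Mcm3 (-1.95 ± 0.07), a gene of the replicative helicase, fell as well.

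The regulators of the members were mixed. The genes that these lists name as risen or fallen were called at the same threshold as the members. At that threshold 36.0% of all tested genes were called, 17.6% higher and 18.5% lower, the shares to set beside each count. Among 15 genes of the p53 arm that controls Cdkn1a, 9 were higher and 2 lower, with a median of 0.21 beside 0.01 over all genes. Those named by their p were Perp (1.07 ± 0.06), Plk2 (0.59 ± 0.05), Ccng1 (0.43 ± 0.03) and Mdm2 (0.42 ± 0.04), all known p53 targets. Among 22 genes of the TGF-β arm of growth arrest, 7 were higher and 7 lower, with a median of 0.03. Runx1 rose by 1.66 ± 0.06 and Skil, which encodes a SMAD corepressor that TGF-β induces, rose by 0.76 ± 0.05, while Id3 (-0.60 ± 0.04) and Id1 (-0.71 ± 0.05), inhibitors of differentiation, fell. That split was 3 higher and 9 lower with library totals, and 5 higher and 7 lower without untreated replicate 1. With limma on log2 FPKM and a pseudocount of 1 it was 8 higher and 7 lower. Myc, which TGF-β lowers in epithelial cells, was called higher here by a small amount, 0.21 ± 0.05 (edgeR adjusted p = 0.00367). With library totals Myc was not called (0.13, edgeR adjusted p = 0.0786).

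Polycomb proteins and their partners silence the Cdkn2a and Cdkn2b locus in many proliferating cells. The list of 26 regulators of the locus holds these proteins together with other factors, among them demethylases that remove the Polycomb mark and activators of the locus. Of the 26 genes, 7 were lower, 1 was higher and 18 were not called, with a median of -0.07 beside 0.01 over all genes. Of all tested genes 36.0% were called, 17.6% higher and 18.5% lower, so called genes were no more common in this list than in the whole. The 1 that rose was Dmtf1 (0.20 ± 0.05), named after its value was seen, which encodes an activator of the p19ARF promoter. The 4 with the smallest p were Cbx6 (-0.57 ± 0.04) and Cbx2 (-0.76 ± 0.14), readers of the Polycomb mark, its writer Ezh2 (-0.70 ± 0.10), and Ets1 (-0.43 ± 0.04), known in human fibroblasts as an activator of the p16INK4a promoter. With library totals 12 were lower and 0 higher. The number higher was 2 without TGF-β1 replicate 3 or untreated replicate 2, and 3 without untreated replicate 3.

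Of 21 tested mitogen response genes upstream of the D cyclins, 5 were higher and 7 lower, with a median of -0.08. Spry2 (-0.59 ± 0.05), Dusp6 (-0.58 ± 0.07) and Spry4 (-0.38 ± 0.06), feedback inhibitors of the ERK pathway, fell, and Ccn1 (0.62 ± 0.06), a target of YAP, rose. The number higher was 2 with library totals, and 3 without TGF-β1 replicate 3 or without untreated replicate 2. It was 6 with the replicate block or without untreated replicate 1. The number lower ran from 5, with DESeq2 or limma, to 9 with library totals. A list of 18 genes held ubiquitin ligase genes that act on CDK inhibitors and D cyclins, together with a cofactor and a deubiquitinase. Of these 18, 3 were higher and 6 lower, with a median of -0.02. Dtl (-2.54 ± 0.16) and Cdc20 (-2.50 ± 0.12), substrate receptors, Cks1b (-0.74 ± 0.07), a cofactor in p27KIP1 degradation, and Usp2 (-0.94 ± 0.18), a deubiquitinase that stabilises cyclin D1, fell. With library totals 0 were higher and 7 lower.

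Of 16 tested genes of CIP/KIP control and other CDK-binding proteins, 5 were lower and 2 higher, with a median of -0.05. Stmn1 (-2.22 ± 0.09), Kif2c (-3.01 ± 0.16), Pcna (-1.10 ± 0.08), whose product binds p21CIP1, and Cdkn3 (-2.58 ± 0.27), a phosphatase gene of CDKs, fell. Of 11 tested imprinted neighbours of Cdkn1c, 4 were lower and 1 higher, with a median of -0.14. H19 (-0.88 ± 0.09), a maternally expressed noncoding RNA, Osbpl5 (-0.19 ± 0.04) and Tssc4 (-0.23 ± 0.05) fell, while Cars (0.25 ± 0.04), a transfer RNA synthetase gene, rose. The neighbours thus did not all move with Cdkn1c.

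Of 18 tested genes that are often measured in senescent cells, where Cdkn2a and Cdkn1a are also high, 11 were lower and 6 higher. Those with the smallest p were Lmnb1 (-1.25 ± 0.06), a nuclear lamin gene, Hmgb2 (-1.89 ± 0.10), a chromatin gene, Igfbp4 (-1.71 ± 0.05) and Igfbp3 (-0.87 ± 0.04), genes of secreted binding proteins of insulin-like growth factors. Loss of Lmnb1 is known in senescent cells, whereas the binding proteins are usually described as part of their secreted set. The list thus mixes genes described as falling in such cells with genes described as rising. Its median, -0.47 beside 0.01 over all genes, therefore has no expected direction. Senescence itself was not tested.

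**Figure D4:**
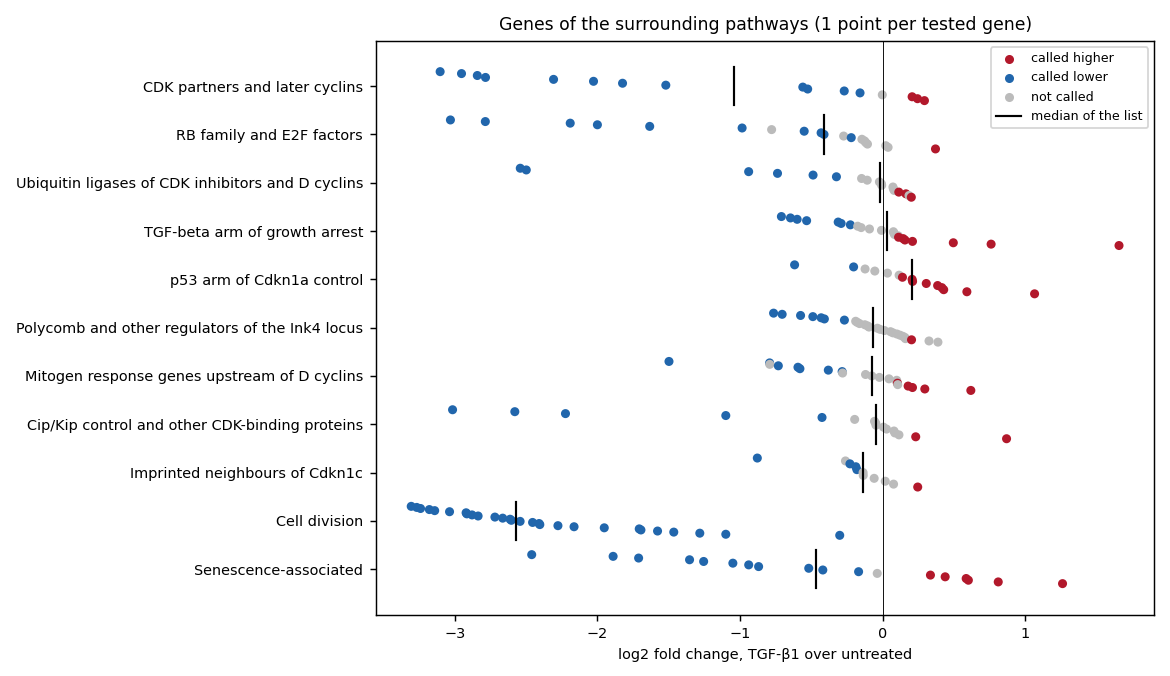
Log2 fold change, TGF-β1 over untreated, of every tested gene in the 11 lists around the members, with 1 point per gene coloured by its call and a bar at the list median. All 28 cell division genes lie below 0, and the p53 arm is the list with the highest median (0.21).

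Library totals ran from 14597778 to 17176898 reads in TGF-β1 cultures and from 14340740 to 16373798 reads in untreated cultures. Ribosomal RNA genes took 1.05 to 2.47% of the reads in TGF-β1 cultures and 2.05 to 2.397% in 3 of the untreated cultures, but 0.0322% in untreated replicate 1 (exact binomial 95% interval 0.0312 to 0.0331%). The summed level of 12 fibroblast markers was 3546 to 3789 FPKM with TGF-β1 and 3193 to 3426 FPKM without (3 higher, 8 lower). That was the highest sum of the marker lists, but sums over different genes do not measure the share of a cell type. RNA of marker genes of other heart cells was present too, and some moved with the groups. The 18 cardiomyocyte markers summed to 139 to 159.6 FPKM with TGF-β1 and 252 to 273 FPKM without (14 lower, 0 higher), and 10 mural markers to 128 to 144 FPKM with TGF-β1 and 82.1 to 83.3 FPKM without (of 7 tested, 4 higher and 2 lower). The 10 epicardial markers summed to 371 to 383 FPKM with TGF-β1 and 430 to 451 FPKM without (2 higher, 3 lower), and the 7 Schwann cell markers to 44.1 to 49.3 FPKM with TGF-β1 and 24.7 to 26.6 FPKM without (of 2 tested, 1 higher). Of those 7 only Ncam1, an adhesion gene that other cells also express, passed 1 FPKM in any library, with a mean of 46.0 FPKM with TGF-β1 and 25.03 FPKM without, and 1 of the 7 was at 0 in all libraries. Macrophage markers (118 to 142 FPKM with TGF-β1 and 129 to 159.5 FPKM without, 1 higher and 2 lower of 10) and endothelial markers (15.7 to 17.2 FPKM with TGF-β1 and 16.6 to 17.01 FPKM without, 2 higher and 2 lower of 9) overlapped, and 3 of the 6 red blood cell genes were at 0 in all libraries. The part of these cells in the changes of the 10 genes was not tested.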

How the data were processed

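Poly(A) RNA of 8 cultures was sequenced. The authors deposited whole-number read counts per gene and, in a second table, FPKM values. No versions stand beside HISAT2, featureCounts, Subread and CASAVA in the submitters' processing notes. They name GRCm38 and the design text names mm39. The coordinates in the deposited count table overlapped the same gene for 99.9% of matched genes in GRCm39 (GENCODE M39) and 16.1% in GRCm38.p6, so they were read as GRCm39. Promoter sequences are RefSeq windows on GRCm38.p6, with an entry for 7 of the 10 genes.

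Counts were filtered with filterByExpr (minimum count 10, minimum total 15), scaled with TMM and tested with edgeR 4.0.16 (limma 3.58.1, R 4.3.3; quasi-likelihood, group only, two-sided, Benjamini-Hochberg). The SE of a log2 fold change is its size over the square root of F. The biological coefficient of variation was 6.27%. Levels of different genes were compared on the authors' FPKM, and 10 ratios, sums and shares were tested over 70 exact assignments. The script was tested on simulated counts. Replicates of a group differed by more than sampling noise. The exact interval covers counting error only.

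The members and gene lists were chosen with earlier results of these data known. The text names all members, Mki67, Cdk4 and Cdk6, and up to 4 called genes with the smallest p in each list. It also names the tested genes within 500 kb of the Cdkn2a and Cdkn2b pair, and the nearest profiles. Outside that rule it names LTO1, which overlaps Ccnd1, and Dmrta1 and Gm12608 near the pair. It also names Myc, Rb1, Dmtf1, Ncam1 and the markers whose calls were lost. All of these were chosen after their values were seen. Alternatives were DESeq2 1.42.0, scaling by RLE, by upper quartiles or by library totals, no filter or a stricter one, limma on log2 FPKM with a pseudocount of 1 or 0.1, a 1.2-fold threshold, a replicate block and each library left out.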

Additional observations from a re-analysis of the deposited data

Results flagged for a closer look

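TGF-β1 replicate 3 stood apart in the log2 ratio of Cdkn2b to Cdkn2a FPKM. Its value was 3.21, a 9.25-fold ratio, against 7.68, 7.70 and 7.87 in the other TGF-β1 cultures. The gap to the nearest library was 0.867 of the range of the group, above the 95% critical value of Dixon's test for 4 libraries. It was the only one of 40 sets of values tested that passed, and chance passes about 1 in 20 such sets. In that library Cdkn2a had the lowest count of its group, 202 reads.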

How the results depend on the processing

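Of 1671 values recomputed under alternatives, 1630 were counted as keeping direction and side of the threshold, or as staying within the allowed range. These include, by rule, the 10 ratios, sums and shares permuted within numbered pairs, which kept direction but cannot reach 0.05. For the 9 members other than Ccnd2, direction and call were the same in all alternatives run, except that Cdkn1c was not called against a 1.2-fold threshold (edgeR adjusted p = 0.388). Ccnd2 became called as lower with upper-quartile factors (-0.11), library totals (-0.18), the stricter count filter (-0.11), DESeq2 (-0.095) and the replicate block (-0.10), and its values without 1 library ran from -0.13 to -0.074. The log2 ratio of Cdkn2b to Cdkn2a ran from -0.0501 to 0.12 as a difference between groups without 1 library, and the D cyclin sum from -0.23 to -0.17 on the log2 scale. Over all genes, a 1.2-fold threshold called 1887 (580 higher and 1307 lower) in place of 5030. Library totals called 1301 higher and 3673 lower and moved the median of all genes to -0.07, so 26.2% of called genes were higher in place of 48.7%. Gm49890 was -0.0106 with library totals and ran from -0.19 to 0.53 without 1 library. Calls were lost in some alternatives for Gm12610 (12 of 16) and for the markers Adgre1 (4), Cdh5 (2), Tek (2) and Lyz2 (1). The cause was not tested. Same-numbered cultures correlated at -0.17, -0.13, 0.01 and 0.10, so the numbers were not taken to pair them. The highest values lay across numbers, 0.24 for TGF-β1 replicate 2 with untreated replicate 1 and 0.24 for TGF-β1 replicate 1 with untreated replicate 2. Whether cultures with different numbers shared a litter was not tested. With the replicate block 4971 genes were called, and Ccnd2 was the only member whose call it changed. Permutation within numbered pairs cannot go below 0.125 and says nothing on stability. Low counts limit the precision for Cdkn2a, Cdkn2c, Gm12610 and Gm49890.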
